A study of Mus musculus with 2 samples.

Results

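The Hedgehog pathway genes described here are the ligand Shh, the membrane proteins Ptch1, Smo, Gas1 and Hhip, the cytoplasmic regulator Sufu and the transcription factors Gli1, Gli2 and Gli3. These 9 genes were chosen as the core of the pathway by name, by a rule that uses no measured value although earlier results of these data were known, out of 37074 gene names on the array. All probes carrying one of these names were taken, which gave 17 probes. The samples were mDE6 cells, labelled as odontogenic epithelial cells of the mouse, either with the DMSO vehicle (control) or with CHIR99021 for 6 h. CHIR99021 inhibits GSK-3 and thereby stabilises β-catenin; the sample label gives its dose as 5 mM, whereas the methods of the study give 5 μM and call the control untreated. There was 1 array per condition, so that no difference has a replicate check, no p-value is given, and the position of an array on the slide cannot be told apart from the treatment.

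Secreted Hedgehog ligands bind Ptch1, which otherwise holds the membrane protein Smo inactive. Active Smo, at the primary cilium of vertebrate cells, relieves the hold of Sufu on the Gli factors and blocks the processing of Gli3 and Gli2 into repressors, so that Gli activators turn on targets that include Gli1, Ptch1 and Hhip themselves. In the absence of ligand, PKA, CK1 and GSK-3 phosphorylate Gli2 and Gli3 and thereby start that processing. In the developing tooth, Shh is made by the dental epithelium, the enamel knot included, and signals both within the epithelium and to the mesenchyme.

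Among the 9 genes, Gli1, a target as well as an effector of the pathway, was the member whose ratio lay outside the limits of 0.66 and 1.5 used below: its signal was 2.5-fold lower in CHIR99021-treated cells. Of all tested probes 9.68% were lower by the same limit. The Z-score of Gli1 against probes of like signal was -1.15 and so within the limit of 2 used below. Of 4 other filters or formulas for it, 3 gave -2.44 to -2.72 and the other -1.47. With the other scalings no Hedgehog probe was past both the ratio and the Z-score limit. With another background correction, normexp, the Gli1 ratio was 0.663 and no longer past the limit, with a Z-score of -1.07. Normexp here added an offset of 50 to every signal, which draws the ratio of a dim signal toward 1. Ptch1, Smo, Gli3, Sufu and Gas1 were measured on both arrays and lay between a ratio of 0.978 and 1.18. Shh, Gli2 and Hhip were not well above background on either array. The median ratio of the 6 measured genes was 1.06, a log2 ratio of 0.08, against a median log2 ratio of 0.03 over the 16886 genes measured on both arrays. The middle of all those genes, from the 25th to the 75th percentile, ran from -0.18 to 0.22. Here and below, a signal is the brightness of a spot with its background subtracted, and a ratio is CHIR99021 over control after each signal was divided by the 75th percentile of its array (486.7 for the control and 469.17 for CHIR99021). A spot is called well above background by the scanner software, and the ± beside a signal is that software's own error, which covers measurement within an array and not the spread between cultures. Signals of different probes depend on the probe as well as on the RNA and were not compared with each other.

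The probes of Gli1 and Ptch1 differed in what they detected, and the last 30 of their 60 bases are given for that reason, from 5′ to 3′ as in the array files, with coordinates in mouse build mm9. Both Gli1 probes lie on the minus strand of chromosome 10, and all 3 Ptch1 probes on the minus strand of chromosome 13. The capitals mark the letters AAGGTAAG, which match the usual sequence across an exon end and the intron start after it; they occur in 36 of the 56605 probes on the array (0.0636%), searched on the strand of the probe, and whether this probe crosses such a boundary was not tested.
Gli1 A_55_P2183587, chr10:126766967-126767026, well above background on both arrays: gaaagaacaaactttaataatgacacagtt
Gli1 A_55_P2080658, chr10:126775021-126775080, on neither array: aaactcAAGGTAAGaaacatccagagacaa
Ptch1 A_65_P18909, chr13:63638793-63638852, on both arrays: tttagaaaatccagtacgctaagttctccc
Ptch1 A_51_P127435, chr13:63612907-63612966, on both arrays: catgtcaggtgtgagaggagggactcaaag
Ptch1 A_55_P2741038, chr13:63644484-63644827, on neither array: cctcttgatgtggcccttgttttgaatggt
The first Gli1 probe was designed on the reference transcript NM_010296 and the other on the cDNA AK157048. The last Ptch1 probe covers 344 bases of the genome, so that its bases come from more than 1 exon. The files do not name the exon or untranslated region in which a probe lies.

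**Figure D1:**
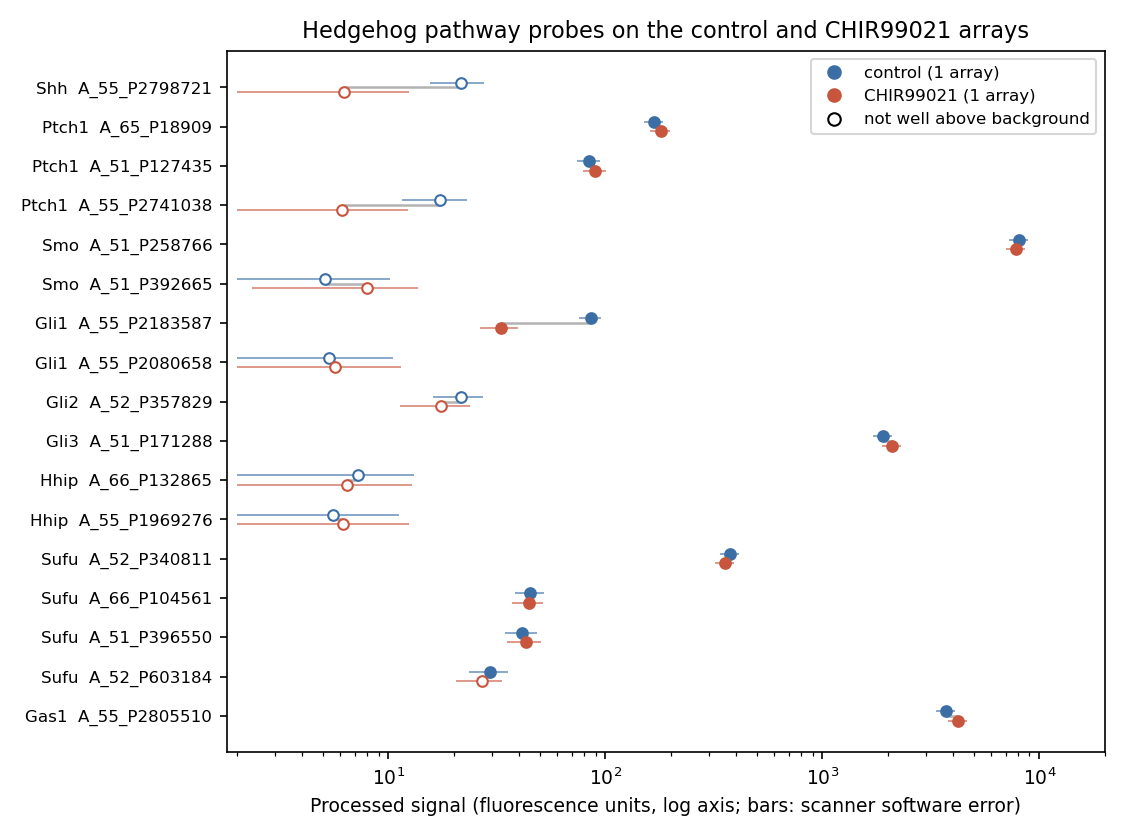
Processed signal (fluorescence units, log axis) of each of the 17 probes on the control and the CHIR99021 array, with bars for the scanner software's error, cut off at the lower edge; open circles are not well above background. The Gli1 probe A_55_P2183587 is the only filled pair with a visible gap, from 85.8 in the control to 33.0 in CHIR99021, and all probes of Shh, Gli2 and Hhip are open.

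Shh, the ligand of the tooth epithelium, had 1 probe, at chr5:28783456-28783515. Its signal was 21.5 ± 5.98 in the control and 6.21 ± 6.23 in CHIR99021. Neither was well above background, and no fold is given. Of the 45 spots within 3 rows and columns of this spot, 8 were at least 4-fold dimmer on the CHIR99021 array while detected above background just in the control, and the 8 adjacent spots, above background or not, had a median log2 ratio of -1.30, so that lower signals were frequent around it. Shh RNA was therefore not detectable with this probe in either condition.

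Ptch1, the receptor that binds Hedgehog ligands and a common readout of Gli activity, was measured by 2 of its 3 probes. Probe A_65_P18909 gave a signal of 167.4 ± 17.5 in the control and 179.6 ± 18.8 in CHIR99021, a ratio of 1.11 and a log2 ratio of 0.15 with an error of 0.21. Probe A_51_P127435 gave 83.9 ± 10.04 and 89.3 ± 10.8, a ratio of 1.1 and a log2 ratio of 0.14 with an error of 0.25. Both probes were slightly higher in CHIR99021 and neither moved by more than its error. The third probe was at 17.3 in the control and 6.12 in CHIR99021, which is not above background in either condition.

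Gas1, a membrane coreceptor that helps Shh bind Ptch1, had 1 probe, at chr13:60276217-60276276. Its signal was 3704 ± 370.4 in the control and 4231 ± 423.1 in CHIR99021. The ratio was 1.18, and the log2 ratio of 0.24 was slightly above its error of 0.20. Hhip, a decoy that binds Hedgehog ligands and a target of Gli, had 2 probes on chromosome 8, at chr8:82489879-82489938 and chr8:82494280-82494339. The first was at 7.25 in the control and 6.41 in CHIR99021 and the other at 5.56 and 6.19, none of them well above background.

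Smo, the transducer of the signal across the membrane, was measured by its probe at chr6:29711225-29711284. The signal was 8066 ± 806.6 in the control and 7784 ± 778.4 in CHIR99021, a ratio of 1.00 once each array was scaled. A probe to the cDNA AK053708, which carries the same gene name, was not well above background, with signals of 5.08 and 7.99. Sufu, which binds Gli factors in the cytoplasm and restrains them, had 4 probes on chromosome 19. The probe at chr19:46563107-46563166 gave 375.9 ± 38.0 in the control and 354.3 ± 35.9 in CHIR99021, a ratio of 0.978. The probes A_66_P104561 and A_51_P396550 gave ratios of 1.02 and 1.08 from signals between 41.3 and 45.1. The fourth was above background in the control alone, with 29.4 in the control and 26.9 in CHIR99021. No Sufu probe moved by more than its error.

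Gli1, the Gli factor that acts as an activator and is itself switched on by the pathway, gave a signal of 85.8 ± 9.94 in the control and 33.0 ± 6.55 in CHIR99021. These signals stood against a lowest signal well above background of 23.7 in the control and 26.3 in CHIR99021, so that the treated value lay near the limit of detection. Before the background was subtracted the spot read 166.9 in the control and 113.2 in CHIR99021, with a local background of 71.0 and 76.0. The ratio was 0.399 and the log2 ratio -1.32, with an error of 0.33 from the scanner software. Since only the probe at chr10:126766967-126767026 was above background, the difference rested on 1 spot per array. The other Gli1 probe was at 5.33 in the control and 5.68 in CHIR99021 and gave no ratio.

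Several measurements bear on the reliability of the Gli1 spot. The spread of its pixels, as a coefficient of variation, was 0.186 on both arrays, below the 99th percentile of detected spots up to row 192, at 0.260 in the control and 0.261 in CHIR99021. The 6 spots next to it, whether or not above background, had a median log2 ratio of 0.65, opposite in sign to Gli1. Of the 46 spots around it, 0 had been lost on the CHIR99021 array in the sense used for Shh and 1 had been gained. The spot lay in row 299 of 384, in the later rows past row 192. These later rows held 63.3% of the probes with a ratio of at most 0.66 against 51.6% of all tested probes, and 54.8% of the low-ratio probes measured on both arrays; the part of array position in the Gli1 value was not tested.

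Gli3, the main repressor of the pathway once processed, had a signal of 1904 ± 190.5 in the control and 2084 ± 208.4 in CHIR99021 with its probe at chr13:15821502-15821561. The ratio was 1.13 and the log2 ratio 0.18, with an error of 0.20. Gli2, the main activator, was at 21.7 ± 5.67 in the control and 17.5 ± 6.18 in CHIR99021 at chr1:120731255-120731314 and was above background in neither condition.

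**Figure D2:**
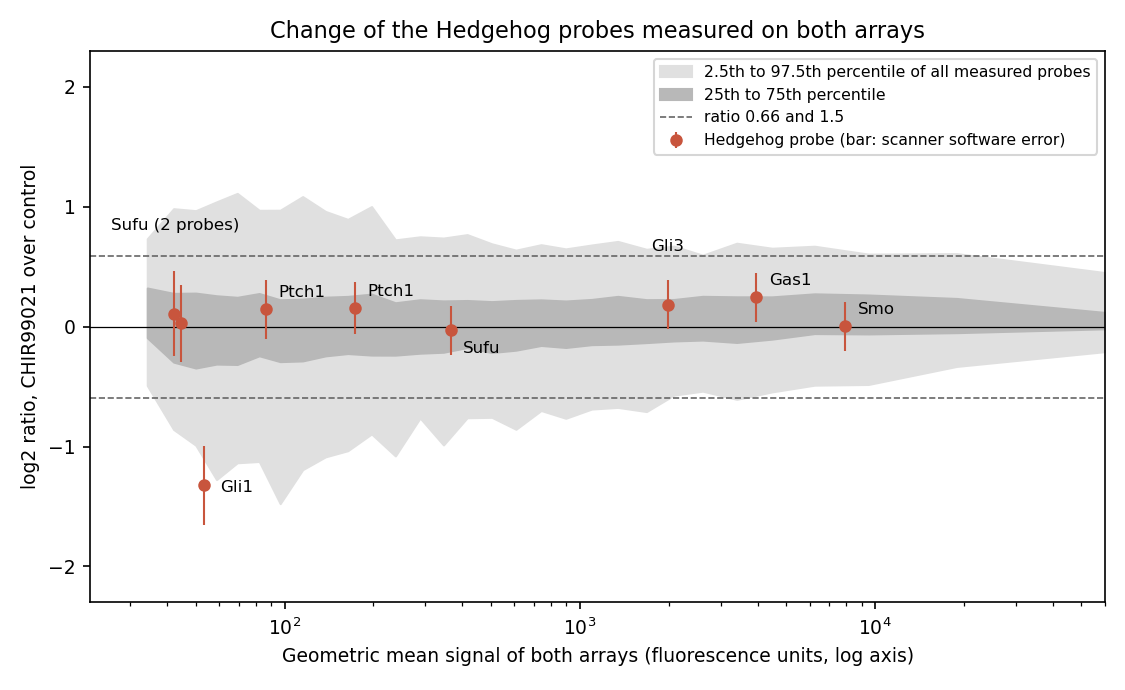
log2 ratio of CHIR99021 over control against the geometric mean signal of both arrays (fluorescence units, log axis) for the 9 Hedgehog probes measured on both, with bars for the scanner software's error; grey bands hold the middle of all 25025 probes measured on both arrays. Gli1 at -1.32 lies just below the wider band, and the other 8 probes lie between -0.03 and 0.24, most of them inside the inner band.

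By the ratio limits alone, a ratio of at most 0.66 or at least 1.5, 1 of the 10 Hedgehog probes tested was lower and 0 were higher. Of all 28066 tested probes, which were well above background in 1 or both conditions, 9.68% were lower and 8.24% higher by the same limits, so that 1 in 10 is near the background. With a Z-score beyond 2 as well, which sets each log2 ratio against the 500 tested probes nearest in mean signal, 0 Hedgehog probes were called in either direction, whereas 2.72% of all tested probes were lower and 2.39% higher. The Z-score of Gli1 was -1.15. It was -2.71 when the nearest probes were limited to those measured on both arrays, and Gli1 was then past both limits. Among the 25025 probes measured on both arrays, Gli1 ranked 181st from the lowest log2 ratio (0.723% at or below it). Among the 500 of those nearest in signal, 7 were at or below it (1.4%), with an SD of the log2 ratio of 0.48.

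The error of a dim spot could be read in part from probes printed 10 times on each array. The SD of the log2 ratio over their spots had a median of 0.03 over 282 such probes, nearly all of them bright. It was 0.218 for the 3 of them with signals between 20 and 100, the range of Gli1, with a highest value of 0.254. This SD covers spot-to-spot error alone, and the small number of dim repeated probes limits it. The remaining 8 Hedgehog probes measured on both arrays had errors between 0.204 and 0.355 from the scanner software, and 7 of them had a ratio above 1 and 1 below; the log2 ratio exceeded its error for 1 of the 8, that of Gas1.

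The genes commonly used to read Gli activity gave different values. Gli1 had a ratio of 0.399. Ptch1 had ratios of 1.11 and 1.1. Hhip was not detectable. The difference between Gli1 and Ptch1 has no test with 1 array per condition.

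The promoters of 7 of the 9 genes were in the RefSeq promoter table (GRCm38.p6), which covers 250 bases before to 50 after each gene's start; Shh and Gli1 were not analysed there. The letters TGGGTGGTC, bound by Gli factors, occurred on either strand in 83 of 32851 promoters (0.253%) and in 0 of the 7. The letters CTTTGAT, bound by the TCF/LEF partners of β-catenin, occurred in 1225 promoters (3.73%) and in 0 of the 7. These counts say only that these letters were not in those windows.

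The wider pathway was read with lists of 77 further genes, of which 75 were on the array and 64 were tested. Of these, 1 was lower and 1 higher by the ratio limits (1.56% each), against 9.67% lower and 8.05% higher among all 18837 genes tested. Those 18837 include genes well above background on 1 array only, whereas 63 of the 64 were measured on both. Among all genes measured on both arrays 5.06% were higher, and the lower share among them was not counted. The same 2 genes were past the Z-score limit as well, against 3.24% lower and 2.67% higher of all genes. The median log2 ratio of the 63 genes measured on both arrays was -0.06. Counted by probe, 4 of the 121 tested probes of these genes were lower (3.31%) and 5 were higher (4.13%). A gene was represented by its brightest probe, and other probes of Dyrk1a, Ift172 and Scube3 were past the lower limit and those of Bbs7, Csnk1d and Ift57 past the higher limit while the brightest probe was not; these 6 genes were named after their values were seen.

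**Figure D3:**
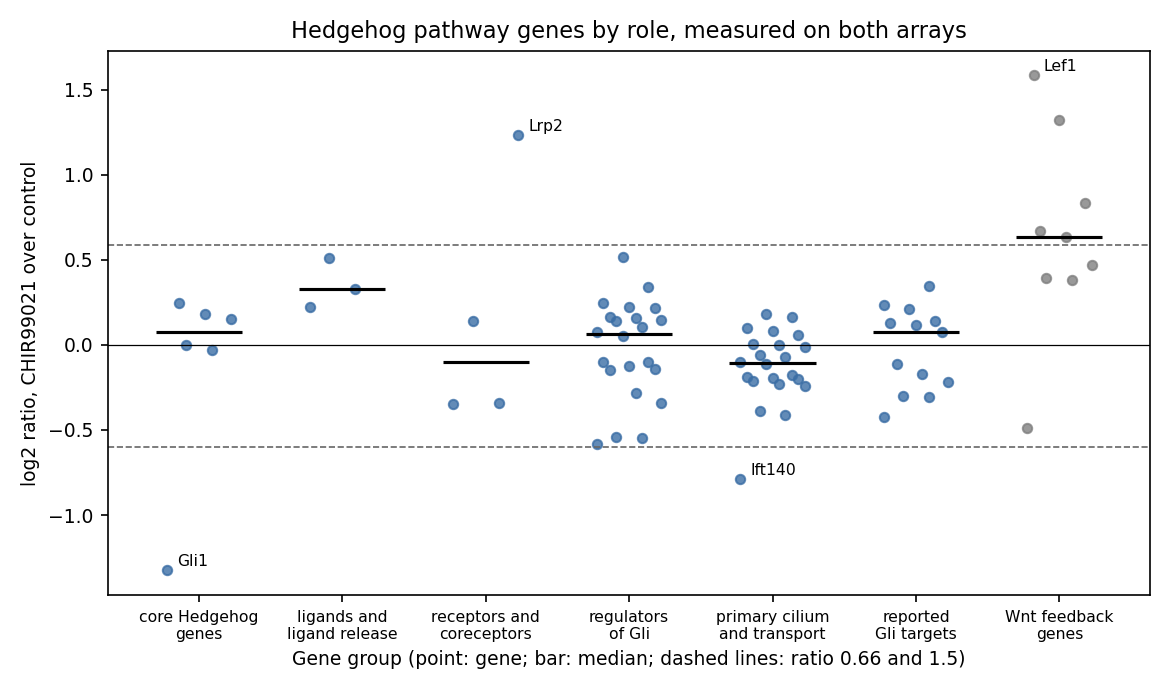
log2 ratio of CHIR99021 over control for genes measured on both arrays, by their role in the pathway; each point is a gene by its brightest probe, bars are medians, and dashed lines are ratios of 0.66 and 1.5. Gli1, Ift140 and Lrp2 lie outside the dashed lines among the Hedgehog groups, whereas 5 of the 9 Wnt feedback genes measured on both arrays lie above the upper line.

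Of the 8 genes for ligands and their release, 4 were tested and none was past the limits. Disp1, which releases the lipid-bearing ligand from the cell, had signals of 693.8 in the control and 954.6 in CHIR99021, a ratio of 1.43. The other tested Disp1 probe had a ratio of 1.13. Hhat, which adds palmitate to the ligand, had 778.8 and 943.0, a ratio of 1.26, whereas its other 2 tested probes had ratios of 1.05 and 0.951. Scube3, a secreted helper of release, had 42.9 and 48.3, a ratio of 1.17, whereas its other tested probe had a ratio of 0.429. All 3 genes measured on both arrays were above a ratio of 1 by their brightest probe. Scube2 was well above background in the control only and was at least 1.47-fold lower in CHIR99021, taking its own dim signal there, which lay above the lowest detected signal, as the limit. The ligands Ihh and Dhh, with Disp2 and Scube1, were not well above background on either array, as was the case for Shh, so that no Hedgehog ligand was detectable (the genes other than Shh are named after their values were seen).

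Of the 5 receptors and coreceptors, 4 were measured. The coreceptors Cdon and Boc, which bind ligand beside Ptch1, were both lower within the limits: Cdon had 4376 in the control and 3324 in CHIR99021, a ratio of 0.788, and Boc had 395.4 and 299.7, a ratio of 0.786. Lrp2, an endocytic receptor that takes up Shh, was past both limits with 179.6 in the control and 407.1 in CHIR99021, a ratio of 2.35 and a Z-score of 2.91. Its other 2 tested probes had ratios of 0.822 and 0.737, and the pixels of the bright spot on the CHIR99021 array were uneven, with a coefficient of variation of 0.288 against a 99th percentile of 0.261. The probes of Lrp2 therefore disagreed in direction.

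The cytoplasmic and ciliary regulators of Gli included the kinases that phosphorylate Gli factors. All 22 on the array were measured. By their brightest probe 0 were past the limits, and the median log2 ratio was 0.06, with ratios from 0.667 to 1.43. A dimmer probe of Dyrk1a had a ratio of 0.0792, whereas the other tested probes of that gene had 1.12, 0.963 and 1.24. Csnk1d, a CK1 kinase, had 13342 in the control and 13570 in CHIR99021, a ratio of 1.06, although its other 2 probes had ratios of 1.58 and 1.55. The PKA subunits Prkar1a and Prkacb had ratios of 1.08 and 0.821, and their other tested probes 1.04 and 0.687. The GSK-3 genes, named because their proteins are the targets of CHIR99021, had ratios of 1.16 for Gsk3a and 0.903 for Gsk3b by their brightest probes. The other tested probes had ratios of 1.08 for Gsk3a, and of 1.1 and 0.846 for Gsk3b, so that those of Gsk3b disagreed in direction. An inhibitor of the enzyme need not alter its RNA, and the arrays do not measure phosphorylation or processing of Gli proteins. The lowest of the group by brightest probe was Spop, an adaptor for the degradation of Gli proteins. Spop had 3704 in the control and 2383 in CHIR99021, a ratio of 0.667, just inside the limit. It was named after its value was seen.

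All 22 genes of the primary cilium and its transport were measured, 16 below and 6 above a log2 ratio of 0, with a median of -0.11; of all genes measured on both arrays, 44.9% were below 0 and the median was 0.03. Ift140, a part of the complex that carries cargo back to the cilium base, was the gene past both limits, with 1147 in the control and 639.6 in CHIR99021, a ratio of 0.578 and a Z-score of -2.25 from its 1 tested probe. Dync2h1, the motor of that return transport, had 14288 and 13115, a ratio of 0.952. Ift27 and Ift81, of the complex that carries cargo outward, had ratios of 0.763 and 0.874. By their brightest probe the others lay inside the limits, whereas a dimmer probe was outside for Ift57 (6.29), Bbs7 (2.42) and Ift172 (0.548).

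Of the 20 reported Gli targets besides Gli1, Ptch1 and Hhip, 13 were measured and none was past the limits, with a median log2 ratio of 0.08 and ratios from 0.745 to 1.27. Ccnd2, a cyclin of the early cell cycle, had 40751 in the control and 49892 in CHIR99021, a ratio of 1.27. Rab34, a membrane traffic protein of cilium formation, had 13556 and 14142, a ratio of 1.08. Many of these targets respond to Gli in some tissues and not in others, and 6 of those on the array were above background in neither condition.

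The treatment and the cell type were read with marker lists. Of the 14 Wnt feedback genes, 9 were measured on both arrays and 5 of these were past a ratio of 1.5, against 5.06% of all genes measured on both arrays; Lef1 had 239.0 in the control and 690.5 in CHIR99021, a ratio of 3.0, and Axin2 was well above background in CHIR99021 only and at least 1.66-fold higher. Of 12 markers of dental epithelium, 4 were measured on both arrays, among them Trp63, and another 2 were detected in CHIR99021 alone. By its brightest probe Trp63 had 2306 in the control and 2896 in CHIR99021, a ratio of 1.3. The other tested probe of Trp63 was past the lower limit of 0.66, so that its probes disagreed in direction. The epithelial adhesion genes Cdh1 and Epcam were above background in neither condition, with signals between 5.23 and 6.13. Of 12 markers of dental mesenchyme, 10 were measured on both arrays, among them Vim with 52302 in the control and 45883 in CHIR99021 and Col1a1 with 122887 and 116351; 3 of the 10 had a ratio above 1 and 7 below, and among them 2 were past the higher limit, with ratios of 1.54 and 1.55, and 1 was past the lower limit, with 0.659. The defining epithelial markers Cdh1 and Epcam were thus absent from these cells at this detection limit although the label calls the line epithelial, and the part of this in the Hedgehog values was not tested.

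**Figure D4:**
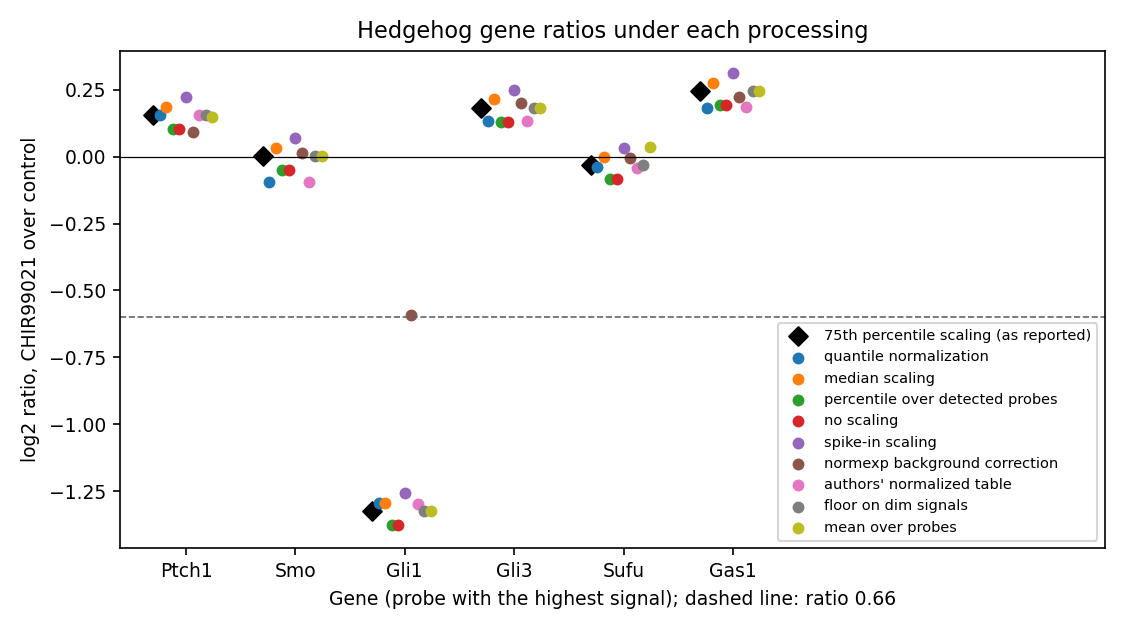
log2 ratio of CHIR99021 over control for the 6 Hedgehog genes measured on both arrays, by 10 ways of processing the signals (diamond: as reported; dashed line: ratio 0.66). Gli1 lies below 0 in all 10 and Ptch1, Gli3 and Gas1 above 0 in all 10, whereas Smo and Sufu lie on both sides of 0; with normexp background correction Gli1 moves to -0.59, just above the dashed line.

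The direction of 4 of the 6 measured genes was the same under all 10 ways of processing. Gli1 was below 0 in each, with log2 ratios from -1.38 without scaling to -1.26 with spike-in scaling, except that normexp background correction gave -0.59. That correction models the background anew and adds an offset of 50 to every signal, above the 33.0 of Gli1 in CHIR99021. An offset of that size draws the ratio of a dim signal toward 1, and the part of each step was not tested. With normexp the Gli1 ratio was 0.663, just short of the limit of 0.66, so that no Hedgehog probe was lower by the ratio limits. Ptch1 ranged from 0.09 to 0.22, Gli3 from 0.13 to 0.25 and Gas1 from 0.18 to 0.31. Smo ranged from -0.09 to 0.07 and Sufu from -0.09 to 0.03, so that the sign of neither was the same in all 10. The 10 ways share the same 2 arrays, so that an equal sign among them does not cover the error of a spot. The log2 ratios of Ptch1 and Gli3 as reported were within that error.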

How the data were processed

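RNA of 1 control and 1 CHIR99021-treated culture was labelled with Cy3 and hybridised to Agilent arrays. The methods name a human array; the file header names a mouse design with mm9 coordinates. The intensity deposited by the authors was that of single spots, background-subtracted by Feature Extraction (10.7.1.1 in the file header, 9.5.1.1 in the submitters' processing notes) and not normalized between arrays, and a table of normalized intensities, used as an alternative. Depth of an array has no count; the number of arrays limits the precision.

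Each of 59305 spots (56605 probes) was used unless flagged as an outlier; the share well above background was 49.8% in the control and 48.3% in CHIR99021, and 0 were saturated. The intensity was averaged over the spots of a probe before the log2 was taken, less the log2 of the 75th percentile on the same array (Python 3.11.15, numpy 2.4.6, pandas 2.3.3, matplotlib 3.10.9; limma 3.58.1 in R 4.3.3 for normexp with an offset of 50). Tested probes were well above background in 1 or both conditions. The Z-score used the 500 nearest tested probes, because the methods do not define it. Where 1 array was not above background, the fold is a limit against the higher of the probe's own signal there and the lowest signal well above background. The criteria were tested on simulated data. The accession of 13 of 17 Hedgehog probes matched the RefSeq gene table (GRCm38.p6), all 13 with the same symbol.

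Genes were named by rule: all 9 members, of the wider lists those past both limits and up to 3 with the highest signal per list, and up to 3 defining markers; exceptions are stated, and some genes of the lists are not reported here. The members and lists were chosen with earlier results of these data known. Sensitivity settings were other scalings, background correction, filters, probe rules, array regions and Z-scores.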

Additional observations from a re-analysis of the deposited data

How the results depend on the processing

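The median log2 ratio of the measured Hedgehog genes was 0.08; it was 0.11 with median scaling, 0.026 with the percentile over probes detected on both arrays, 0.025 without scaling, 0.145 with spike-in scaling, 0.047 in the authors' normalized table and -0.032 over all 9 genes without a filter on dim probes. The count of lower probes was 1; it was 0 with normexp, 0 without the later rows of the array, which leave out Gli1, and 3 without the filter, which also gave 1 higher probe against 0. With the Z-score, 0 lower probes became 1 (Gli1) with probes detected on both arrays only, without uneven spots, and with a Z-score from the median and MAD, where the Z-scores of Gli1 were -2.71, -2.44 and -2.72. Of the wider genes, 1 was lower; 2 were lower with quantile normalization or the authors' table, and 3 with the percentile over detected probes or without scaling. The 1 higher gene became 2 with spike-in scaling. The cause of these moves was not tested, beyond the members that a filter or region adds or removes. The scalings moved the median of all probes by -0.053 to 0.066. No paired analysis was possible because there was a single array of each condition, and for the same reason no replicate could be left out. Signal over background limits Shh, Gli2, Hhip and the treated value of Gli1.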
